A study of Mus musculus with 8 samples.

Results

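The transcription factors that act on the antioxidant response element were followed in sorted regulatory T cells (Tregs) of mice, as the 9 genes Nfe2l2, Nfe2l1, Nfe2, Keap1, Bach1, Bach2, Maff, Mafg and Mafk. They were taken by symbol from the 56980 genes of the count table, and all 9 were found once. The data are 8 RNA-seq libraries, 4 HADA and 4 control, of Tregs sorted from blood. The study's methods define Tregs as CD4+CD25+ for the co-culture assay and do not state the markers for the RNA-seq sort. HADA stands for high-altitude de-acclimatization. The HADA mice were male C57BL/6j mice, bought at 8 weeks of age, which spent 28 days under the reduced pressure of 6000 m in a hypobaric chamber before they went back to normoxia. Control mice of the same strain stayed in normoxia throughout. The day of sorting for RNA-seq and the number of mice behind a library are not given in the sources used here, so the p-values below measure only the spread between these libraries.

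NRF2, the product of Nfe2l2, is the best known activator of genes that carry an antioxidant response element, and it binds this element only as a pair with a small MAF protein. In resting cells KEAP1 holds NRF2 and passes it to a ubiquitin ligase, so that much of the control of NRF2 lies in protein stability and not in its RNA. BACH1 and BACH2 pair with the same small MAF proteins and repress through the same kind of element, and haem releases BACH1 from it. BACH2 is also known in T cells as a factor that keeps Tregs and naive T cells in a resting state.

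In these libraries Nfe2l2 was the only member whose groups lay apart on the TMM scale. Each of its 4 HADA values was above each of its 4 control values, but the gap between the nearest of them was small and the difference did not pass the test. None of the 8 members that could be tested was past the thresholds (log2 fold change beyond 1 and adjusted p below 0.05) in the quasi-likelihood test of edgeR, with p-values adjusted by Benjamini-Hochberg over 21991 genes, and 1 of them, Maff, had an unadjusted p below 0.05. Of all genes tested, 1.65% were higher in HADA and 0.477% lower by these thresholds, and 26.7% had an unadjusted p below 0.05. Keap1 did not reach the minimum count for this fit. With DESeq2 1 member, Maff, was past the thresholds, where 11.6% of all genes were higher and 20.1% lower. With DESeq2 on every gene with a count it was 0, where 6.78% of genes were higher and 11.3% lower. The log2 fold change was positive for 6 of the 8 and negative for 2, with a median of 1.22, against a median of 0.01 over all genes and 50.2% of genes above 0. Since members with low counts can pass the filter through the group in which they are high, this median is given as a description. The lists of cell type markers used below had medians of 2.69 (Treg), 1.37 (T cell), 1.28 (platelet), 1.24 (myeloid), 0.745 (B cell) and -3.45 (red cell). A median like that of the members was thus not particular to them.

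The libraries differed in ways that touch these genes. Total counts ran from 22929193 to 28240337 in HADA and from 1477431 to 22584062 in control, with control replicate 1 the smallest, and 3 counts in that library are already 2.03 CPM (counts scaled to a common library total). Counts were taken over the whole span of a gene, introns included. Olfactory and vomeronasal receptor genes, which T cells do not use, were therefore counted as a measure of counts that do not come from expression. Their density was 4.39 and 5.29 counts per kb in HADA replicates 2 and 1, 2.86 and 1.99 in HADA replicates 3 and 4, and 0.0789, 10.8, 8.24 and 3.49 in control replicates 1 to 4. Mitochondrial genes held 5.02% to 7.59% of the counts in HADA and 0.636% to 3.81% in control. The summed level of 7 T cell markers was 2199 to 7407 CPM in HADA and 177 to 3414 in control, lowest in control replicate 2. Il2ra, which encodes CD25, had 163 to 748 CPM in HADA and 7.23 to 178 in control, and Cd4 had 88.0 to 234 and 3.73 to 220. The sum of the Treg markers was 734 to 2618 CPM in HADA and 227 to 648 in control. With edgeR 0 of 4 Treg markers and 0 of 7 T cell markers were past the thresholds (2 of each list at an unadjusted p below 0.05). DESeq2 called 2 of each list higher, where 11.6% of all genes were higher. Foxp3, the defining factor of Tregs, is covered over 100% of its span by other genes of the table and was listed at 0 in every library, so it could not be used to check the label. The part of these library differences in the results below was not tested. In such bulk libraries fewer cells of a type and less RNA per cell cannot be told apart.

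The core of the antioxidant response element was looked for in the promoters of the members, since these factors are themselves known to be under its control. RefSeq promoter windows (GRCm38.p6, 250 bases before to 50 after each start) were matched for 8 of the 9 genes, Nfe2 being the exception. The core TGANNNNGC, searched on both strands, was found for 7 of the 8 genes, and not in the window of Bach1. It is a loose pattern, present in 41.3% of all 32851 windows of this length. That share is per window, so it is not on the same scale as the count of genes. Nfe2l1 had 5 windows, all with the core and some sharing 1 site, and Maff had 3, of which 1 held it. One site each is shown for the gene of NRF2 and for a pair of its small MAF partners, with the core in capitals. The first lies at chr2:75704887-75704911 on the minus strand, the second at chr15:79346501-79346525 on the plus strand and the third at chr11:120633592-120633616 on the plus strand, opposite to Mafg.
Nfe2l2: agcccaccTGACTCCGCcatgcccc
Maff: gcgtctcaTGACTCTGCcactggaa
Mafg: tccattcaTGAAGCGGCgacgcggc
These cores start 240, 112 and 61 bases before the start sites, at positions -240, -112 and -61. A match of letters is a description and not evidence of binding.

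Nfe2l2 (ENSMUSG00000015839, chromosome 2 of GRCm39, 75505857 to 75534985, minus strand) had 175, 145, 334 and 303 TMM-normalized CPM in HADA replicates 1 to 4. In control replicates 1 to 4 it had 130, 4.92, 124 and 71.2 CPM. The lowest HADA library, at 145, was thus just above the highest control library, at 130, and control replicate 2 was far below every other library. Of all genes tested, the groups did not overlap for 14.8%, with HADA higher for 9.13% and lower for 5.7%. There was a HADA mean of 239 ± 93.6 CPM and a control mean of 82.7 ± 58.3 (SD, n = 4 each). The log2 fold change was 1.53 (standard error, SE, 0.90, 95% interval -0.43 to 3.49, adjusted p = 0.268, the same edgeR test). Leaving out any 1 library gave 1.14 to 1.96, and the lowest adjusted p of these fits was 0.151, without control replicate 1. Without HADA replicate 1, which changes the scaling of the other libraries, the groups overlapped. After subtraction of the receptor-gene background they overlapped too, and the log2 fold change of 0.90 was just below the median of all genes, 1.01. With all libraries drawn down to the smallest total the groups again overlapped, and it was 0.42 against a median of -0.47. In control replicate 2 the gene had 157 counts, a density of 0.503 times that of the receptor genes, while in the other 7 libraries the density was 12.1 to 91.7 times that of the receptor genes.

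**Figure D1:**
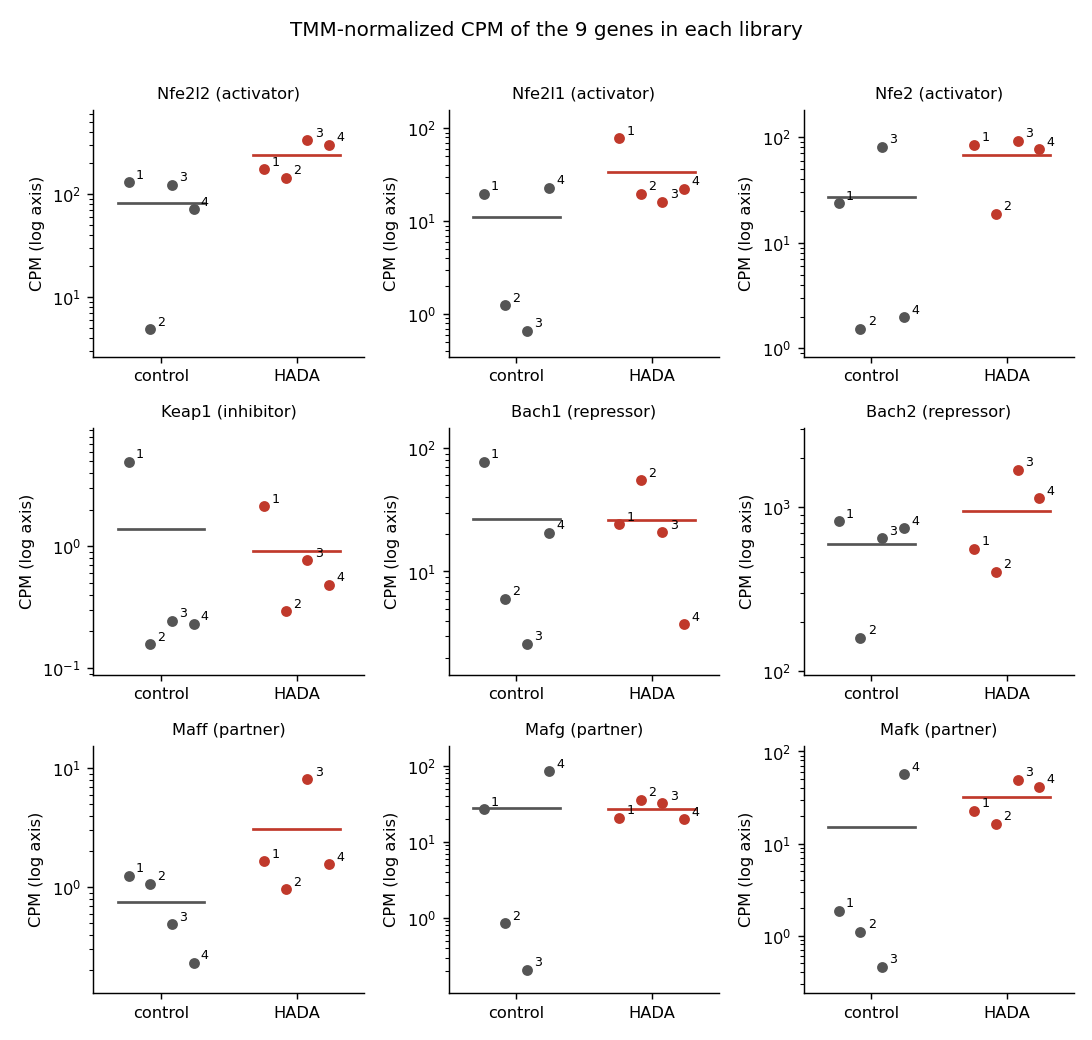
TMM-normalized CPM (log axis) of the 9 genes in the 4 control (grey) and 4 HADA (red) libraries, with replicate numbers beside the points and bars at the group means. The Nfe2l2 groups lie apart by a narrow gap (145 against 130 CPM), and the control libraries spread widely for Mafg (0.210 to 84.7 CPM) and Mafk (0.454 to 56.7 CPM).

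Nfe2l1 (ENSMUSG00000038615, chromosome 11, 96708240 to 96720794), which encodes NRF1, the activator of proteasome genes, had 78.3, 19.7, 16.1 and 22.5 CPM in HADA replicates 1 to 4 and 19.9, 1.25, 0.664 and 22.9 in control replicates 1 to 4. HADA replicate 1 stood above all others, and control replicates 1 and 4 were at about the level of the other HADA libraries, control replicate 4 slightly above them. Its log2 fold change was 1.63 (SE 1.15, 95% interval -0.88 to 4.13, adjusted p = 0.346, the same edgeR test). Without HADA replicate 1 it was 0.68.

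Nfe2 (ENSMUSG00000058794, chromosome 15, 103156639 to 103166830) encodes the large subunit of NF-E2, the activator known from megakaryocytes and red cell precursors. It had 84.3, 18.8, 92.6 and 76.5 CPM in HADA replicates 1 to 4 and 23.6, 1.53, 80.5 and 1.97 in control replicates 1 to 4. Control replicate 3, on 2305 counts, reached the level of the high HADA libraries, and HADA replicate 2 fell below control replicate 1. The log2 fold change was 1.34 (SE 1.17, adjusted p = 0.446, the same edgeR test), and it was 2.97 without control replicate 3. The summed level of 10 platelet markers was 1870, 373, 1392 and 1666 CPM in HADA replicates 1 to 4 and 744, 75.1, 81.4 and 654 in control replicates 1 to 4. HADA replicate 2 was thus the lowest HADA library for Nfe2 and for these markers, whereas control replicate 3 was high for Nfe2 and low for the markers. HADA replicate 2 was also the lowest HADA library for the T cell (2199), Treg (734) and B cell (1324 CPM) sums, but not for the myeloid sum. Treml1 was at 0 counts in control replicate 1. Gp1bb, whose span is covered to 92.9% by other genes, was at 0 in 5 of the 8 libraries. Of the platelet markers tested, 0 of 9 were past the thresholds with edgeR (3 at an unadjusted p below 0.05). With DESeq2 3 were higher, where 11.6% of all genes were higher. The sum of 9 red cell genes, nearly all of it from 4 globin genes, was 216 to 2879 CPM in HADA and 1031 to 28415 in control. Of the 7 tested, 0 passed with edgeR (6 at an unadjusted p below 0.05). DESeq2 called 6 lower, where 20.1% of all genes were lower. The seventh, Gata1, a factor shared with megakaryocytes, had a log2 fold change of 2.27 (adjusted p = 0.285, the same edgeR test). Alas2, covered over 100% of its span by other genes, was listed at 0 in all libraries and could not be judged.

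Keap1 (ENSMUSG00000003308, chromosome 9, 21141026 to 21150657), the inhibitor that binds NRF2, was close to the limit of what these libraries show. It had 54, 7, 13 and 8 counts in HADA replicates 1 to 4 and 8, 5, 7 and 4 counts in control replicates 1 to 4. Other genes cover 35.3% of its span, where reads were not counted. In 6 of the 8 libraries its density was below that of the receptor genes, and only HADA replicate 1 (1.64 times) and control replicate 1 (16.3 times) were above it. Without the filter its log2 fold change was 0.34 (SE 1.18, adjusted p = 0.868, edgeR), and with DESeq2 on every gene with a count it was -0.20 (adjusted p = 0.908). The fits that left out 1 library and kept the gene gave -0.28 to 0.81, so neither its sign nor its size was settled.

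Bach1 (ENSMUSG00000025612, chromosome 16, 87495833 to 87530234), the haem-sensitive repressor of Hmox1, did not separate the groups. It had 24.2, 54.8, 20.8 and 3.73 CPM in HADA replicates 1 to 4 and 77.1, 6.01, 2.59 and 20.7 in control replicates 1 to 4. The highest and the lowest library were both controls. The means were 25.9 ± 21.3 (SD, n = 4) and 26.6 ± 34.6 (SD, n = 4), and the log2 fold change was -0.02 (SE 1.11, 95% interval -2.45 to 2.40, adjusted p = 0.989, the same edgeR test). Without control replicate 1 it was 1.52 (adjusted p = 0.261). Markers of myeloid cells, in which Bach1 is also active, summed to 1698, 53.1, 291 and 1120 CPM in control replicates 1 to 4. Control replicate 1 was thus the highest control library for both, as it was for the Treg (648), B cell (3220) and platelet (744 CPM) sums. For T cell markers the highest control library was control replicate 4 (3414 CPM). In HADA the myeloid markers summed to 948, 2433, 3404 and 929 CPM in replicates 1 to 4. They were highest in HADA replicate 3, whereas Bach1 was highest in HADA replicate 2. Of 9 myeloid markers tested, 0 were past the thresholds with edgeR (3 at an unadjusted p below 0.05). With DESeq2 2 were higher, where 11.6% of all genes were higher.

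Bach2 (ENSMUSG00000040270, chromosome 4, 32238804 to 32586108) was the member with the most counts, on a span of 347 kb of which 7.59% is covered by other genes, the antisense gene Bach2os among them. Since the strand setting is not stated, reads of antisense transcripts elsewhere in the span cannot be told apart from its own. It had 557, 402, 1695 and 1133 CPM in HADA replicates 1 to 4 and 820, 160, 645 and 744 in control replicates 1 to 4. HADA replicates 3 and 4 were above all controls, and HADA replicates 1 and 2 were below 3 of the 4. The means were 947 ± 589 (SD, n = 4) and 592 ± 297 (SD, n = 4), with a log2 fold change of 0.68 (SE 0.73, 95% interval -0.92 to 2.27, adjusted p = 0.538, the same edgeR test). The sign was negative after drawing down (-0.68), after background subtraction (-0.014) and with at least 10 counts in every library (-0.029). B cells also express Bach2, and 7 B cell markers summed to 1324 to 3755 CPM in HADA and 418 to 3220 in control. The sum was lowest in control replicate 2, as Bach2 was. So were the sums of the T cell (177), Treg (227), myeloid (53.1) and platelet (75.1 CPM) markers. All libraries had 0 counts for Ms4a1, but other genes cover 100% of its span, where reads were not counted. Of the 6 B cell markers tested 0 passed with edgeR (0 at an unadjusted p below 0.05) and 0 with DESeq2.

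The small MAF proteins lack an activating domain and serve as partners of both sides. Mafg (ENSMUSG00000051510, chromosome 11, 120515943 to 120524426) had 20.5, 35.7, 32.2 and 19.7 CPM in HADA replicates 1 to 4 and 26.7, 0.845, 0.210 and 84.7 in control replicates 1 to 4. The HADA libraries were close together, while the controls lay on both sides of them. Its log2 fold change was -0.06 (SE 1.32, adjusted p = 0.980, the same edgeR test), and 1.64 without control replicate 4. Mafk (ENSMUSG00000018143, chromosome 5, 139777268 to 139788408) had 22.8, 16.3, 48.9 and 41.6 CPM in HADA replicates 1 to 4 and 1.86, 1.10, 0.454 and 56.7 in control replicates 1 to 4. Control replicate 4 alone kept the groups from lying apart. Control replicate 1 rested on 3 counts. Control replicates 2 and 3, with 35 and 13 counts, were at 0.296 and 0.144 times the receptor-gene density. The log2 fold change was 1.10 (SE 1.31, adjusted p = 0.577, the same edgeR test). Without control replicate 4 it was 5.02 (adjusted p = 0.087). Maff (ENSMUSG00000042622, chromosome 15, 79230821 to 79243276) was a minor member, at 1.66, 0.963, 8.09 and 1.56 CPM in HADA replicates 1 to 4 and 1.24, 1.07, 0.489 and 0.232 in control replicates 1 to 4. It rested on 2 to 34 counts per control library, and its density was below that of the receptor genes in HADA replicates 1 and 2 and control replicates 2, 3 and 4 (0.0991 to 0.686 times). Its log2 fold change was 2.17 (SE 0.84, 95% interval 0.34 to 4.0, unadjusted p = 0.024, adjusted p = 0.143, the same edgeR test) and 1.21 without HADA replicate 3. With DESeq2 the adjusted p of Maff was 0.048 on the genes that passed the filter and 0.109 on every gene with a count.

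**Figure D2:**
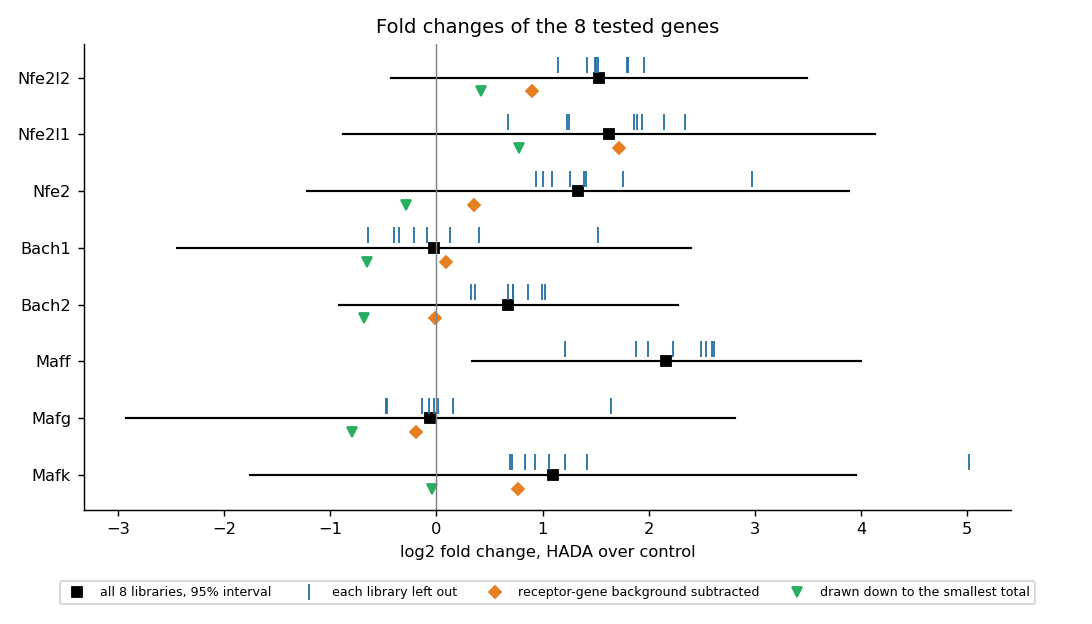
Log2 fold change of HADA over control for the 8 tested genes. Squares and lines are the fit on all 8 libraries with its 95% interval, ticks leave out each library in turn, diamonds are after subtraction of the receptor-gene background and triangles with all libraries drawn down to the smallest total (neither could be given for Maff). Only the interval of Maff (0.34 to 4.0) lies wholly above 0, and its adjusted p is 0.143.

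Levels of different members were compared per length, as TMM-normalized CPM per kb of the span that no other gene covers. In HADA the order of the means was Nfe2l2 at 8.24 ± 3.22 (SD, n = 4), Nfe2 at 6.67 ± 3.29, Mafg at 3.23 ± 0.97, Mafk at 2.95 ± 1.40, Bach2 at 2.95 ± 1.84, Nfe2l1 at 2.72 ± 2.36, Bach1 at 0.752 ± 0.618, Maff at 0.265 ± 0.291 and Keap1 at 0.147 ± 0.133. In control it was Mafg at 3.36 ± 4.75 (SD, n = 4), Nfe2l2 at 2.85 ± 2.01, Nfe2 at 2.64 ± 3.65, Bach2 at 1.85 ± 0.925, Mafk at 1.37 ± 2.53, Nfe2l1 at 0.890 ± 0.945, Bach1 at 0.773 ± 1.0, Keap1 at 0.225 ± 0.382 and Maff at 0.0655 ± 0.0411. Neighbours in either order differed by less than the larger of their SDs, except Nfe2 and Mafg in HADA. Bach2, first in counts, fell to the middle when its counts were divided by its long span. That span includes introns, so the measure lowers genes with long introns where reads fall on exons. Levels per kb of exon were not computed, and the order between genes may differ on that scale.

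How many members rose above the receptor-gene density depended on the library. All 9 were above it in control replicate 1, though Maff on 2 counts and Mafk on 3. The receptor-gene density of that library was 0.0789 counts per kb. In control replicate 2 the receptor-gene density was exceeded by Bach2 alone, at 1.48 times, and 8 of 9 members were at or below it. In control replicate 3 it was 6 of 9, in control replicate 4 it was 3 of 9, and in the HADA libraries 1 or 2 of 9. The members that control replicate 3 showed above the receptor genes were Nfe2, Nfe2l2 and Bach2.

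**Figure D3:**
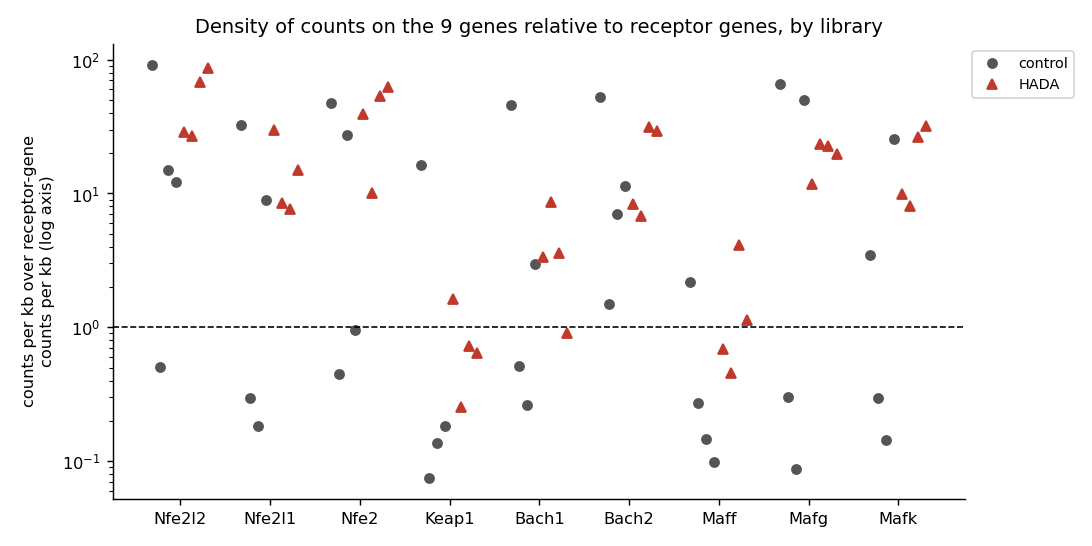
Counts per kb on each of the 9 genes divided by the counts per kb on receptor genes of the same library (log axis), for control (grey circles) and HADA (red triangles) libraries in the order of their replicates, with a dashed line at 1. Control replicate 2 falls below 1 for 8 of the 9 genes, and Keap1 falls below 1 in 6 of the 8 libraries.

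Activators were set against repressors by the ratio of TMM-normalized counts within a library (log2, prior count of 2). Apart from the weight of the prior count where counts are low, this ratio does not depend on how libraries are scaled. For Nfe2l2 to Bach2 the ratio was -1.67, -1.48, -2.34 and -1.90 in HADA replicates 1 to 4 and -2.65, -5.00, -2.38 and -3.38 in control replicates 1 to 4. Every HADA library was above every control library, but the margin between HADA replicate 3 and control replicate 3 was far smaller than the SD of either group. The share of gene pairs that lie apart was not counted. In control replicate 2, the lowest library, Nfe2l2 had a density of 0.503 times that of the receptor genes. The means were -1.85 ± 0.37 (SD, n = 4) and -3.35 ± 1.18 (SD, n = 4). For Nfe2l2 to Bach1 the ratio was 2.85, 1.40, 4.0 and 6.31 in HADA replicates 1 to 4 and 0.76, -0.29, 5.53 and 1.78 in control replicates 1 to 4, and the groups overlapped. For Nfe2l2 to Keap1 the HADA mean was 8.11 ± 1.23 and the control mean 6.31 ± 2.13 (SD, n = 4 each). That ratio rests on at most 8 Keap1 counts in 6 of the 8 libraries, and the groups overlapped. The ratios are a description and were given no test.

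**Figure D4:**
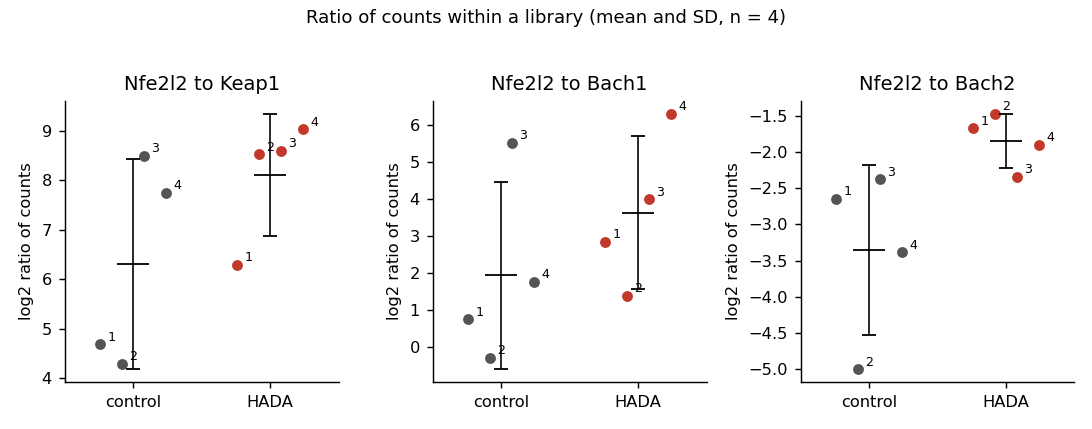
Log2 ratio of Nfe2l2 counts to Keap1, Bach1 and Bach2 counts within each library, with replicate numbers and the mean and SD of each group (n = 4). The groups lie apart for Bach2 (-2.34 to -1.48 in HADA against -5.00 to -2.38 in control) and overlap for Keap1 and Bach1.

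The genes around these factors were taken from lists of known members. Of 15 genes for the turnover of NRF2, NRF1 and the BACH proteins, 14 had a positive log2 fold change (median 0.66) and 0 were past the thresholds with edgeR, 2 having an unadjusted p below 0.05. DESeq2 called 2 higher and 1 lower, where 11.6% of all genes were higher and 20.1% lower. Rbx1, the RING subunit of the ligase that KEAP1 serves, had 320, 284, 635 and 445 CPM in HADA replicates 1 to 4 and 167, 1.10, 23.6 and 6.14 in control replicates 1 to 4. Its groups lay apart, with a log2 fold change of 3.10 (SE 1.24, adjusted p = 0.150, the same edgeR test). Gsk3b, a kinase that marks NRF2 for degradation, had a HADA mean of 236 ± 110 CPM and a control mean of 772 ± 602 (SD, n = 4 each), with a log2 fold change of -1.71 (SE 0.76, adjusted p = 0.178, the same edgeR test). After drawing all libraries down to the smallest total edgeR called Gsk3b lower, where 156 of 10501 genes were lower.

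Of 27 genes known as targets of the antioxidant response element, 26 were tested, and G6pdx, fully covered by another gene, was listed at 0. With edgeR 0 were past the thresholds, 9 having an unadjusted p below 0.05. DESeq2 called 7 higher and 2 lower, where 11.6% of all genes were higher and 20.1% lower. Without control replicate 1 edgeR called 6 higher and 2 lower, where 15.5% of all genes were higher and 19.7% lower. The log2 fold change was positive for 17 of 26 with a median of 1.40. Txn1, thioredoxin, had 110, 142, 124 and 183 CPM in HADA replicates 1 to 4 and 32.3, 2.13, 9.75 and 7.01 in control replicates 1 to 4 (log2 fold change 3.47, standard error 0.94, adjusted p = 0.075, the same edgeR test). Osgin1, an oxidative stress response gene, had a HADA mean of 14 ± 6.65 CPM and a control mean of 1.69 ± 2.20 (SD, n = 4 each) (log2 fold change 3.29, adjusted p = 0.096, the same edgeR test). The groups lay apart for both. A few textbook targets were picked out after their values were seen. Hmox1, the haem oxygenase that BACH1 represses, had a log2 fold change of 4.17 (adjusted p = 0.106), Nqo1, a quinone reductase, had -0.09 (adjusted p = 0.944) and Gclm, a subunit of the enzyme that starts glutathione synthesis whose span is covered to 58.7% by other genes, had -2.04 (adjusted p = 0.137), all from the same edgeR test. Hmox1 had 46.5, 18.2, 0.295 and 32.0 CPM in HADA replicates 1 to 4 and 0.232 to 3.73 in control, so that HADA replicate 3 lay within the controls. The targets thus held values in both directions.

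NRF1 is known to drive proteasome genes. Of 31 proteasome subunits 28 had a positive log2 fold change (median 1.57), and 0 were past the thresholds with edgeR, 5 having an unadjusted p below 0.05, whereas DESeq2 called 5 higher, where 11.6% of all genes were higher. Psma2, a subunit of the core ring, had a HADA mean of 292 ± 118 CPM and a control mean of 66.0 ± 48.2 (SD, n = 4 each) (log2 fold change 2.15, adjusted p = 0.131, the same edgeR test). Psmd3, a subunit of the regulatory cap, had 120 CPM in HADA replicate 4 and 0.524 to 14.3 in the other 7 libraries (log2 fold change 3.89, adjusted p = 0.113, the same edgeR test).

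BACH2 is known to restrain effector genes in T cells. Of 6 such genes 5 had log2 fold changes between 1.78 and 1.85, and 0 were past the thresholds with edgeR, 1 having an unadjusted p below 0.05. Prdm1, which encodes BLIMP-1, had a HADA mean of 43.0 ± 28.5 CPM and a control mean of 12.3 ± 4.48 (SD, n = 4 each) (log2 fold change 1.80, adjusted p = 0.192, the same edgeR test). The exception was Gata3, the factor of type 2 helper cells, at 62.3, 59.4, 128 and 206 CPM in HADA replicates 1 to 4 and 160, 40.1, 680 and 1795 in control replicates 1 to 4. It had a log2 fold change of -2.55 (adjusted p = 0.158, the same edgeR test). DESeq2 called 0 genes of this list higher and 1, Gata3, lower, where 11.6% of all genes were higher and 20.1% lower. With at least 10 counts in every library edgeR also called Gata3 lower, where 133 of 8472 genes were lower. After drawing down edgeR called it lower too, where 156 of 10501 genes were lower. Of 9 genes of naive and resting T cells, all 9 had a positive log2 fold change (median 1.14). With edgeR 0 were past the thresholds and 1 had an unadjusted p below 0.05. DESeq2 called 1, Lef1, higher, where 11.6% of all genes were higher. Lef1, a factor of naive T cells, had a HADA mean of 700 ± 343 CPM and a control mean of 162 ± 149 (SD, n = 4 each), with the groups apart (log2 fold change 2.12, adjusted p = 0.131, the same edgeR test).

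The medians of these lists lay within the range of those of the cell type marker lists, -3.45 (red cell) to 2.69 (Treg), and moved with the scaling. After drawing down they were -0.63 for turnover, 0.21 for the targets, 0.35 for the proteasome, 0.39 for the genes restrained by BACH2 and 0.13 for naive T cells, against -0.47 for all genes. After background subtraction they were 0.87, 1.28, 1.19, 1.41 and 0.63 in that order, against 1.01 for all genes. The turnover median was -0.09 when each library had to hold at least 10 counts. Leaving out control replicate 1, edgeR called 4 turnover genes, 9 proteasome subunits, 2 genes restrained by BACH2 and 2 naive T cell genes higher, and none of these lists had a gene called lower, where 15.5% and 19.7% of all genes were.

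**Figure D5:**
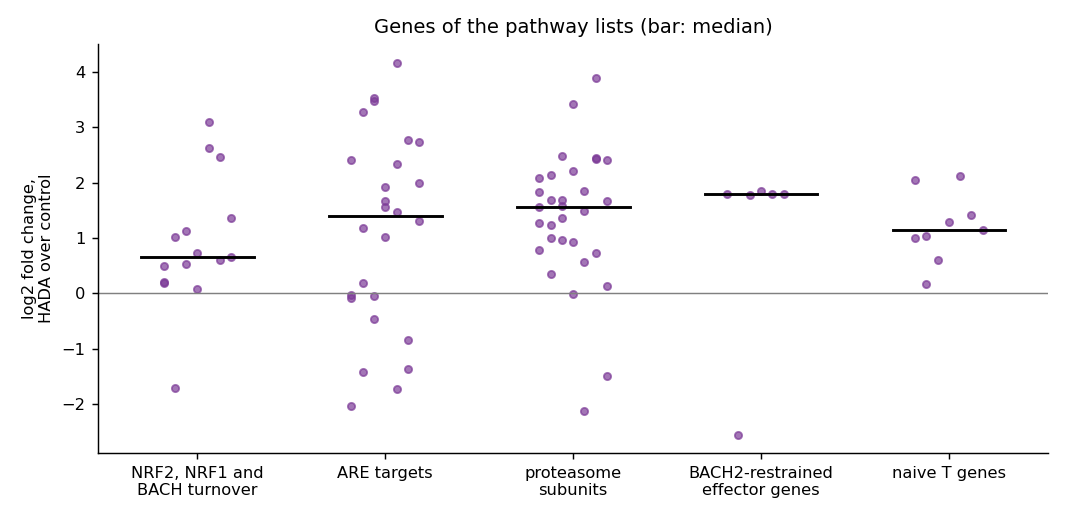
Log2 fold change of HADA over control for each tested gene of the 5 pathway lists, with bars at the medians (0.66, 1.40, 1.57, 1.79 and 1.14 from left to right). None of these genes was past the thresholds with edgeR, and the targets of the antioxidant response element (ARE) hold values on both sides of 0.

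The genes whose levels moved most like Nfe2l2 over the 8 libraries were Prdx6, which encodes a peroxiredoxin, Rbm5 and Rhoa. Their centred log2 CPM differed from that of Nfe2l2 by a root mean square of 0.33, 0.35 and 0.35. Most like Bach2 were Morf4l1, Fgfr1op2 and Ptp4a2, at 0.26, 0.30 and 0.33. Their adjusted p-values in the edgeR test ran from 0.24 for Rhoa to 0.573 for Fgfr1op2.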

How the data were processed

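RNA was measured in 8 libraries of sorted Tregs, made by the authors with a low-input cDNA kit. After FastQC, Trimmomatic and STAR alignment to GRCm39 the authors deposited raw featureCounts counts per gene, without normalization. Versions, strand and multi-mapping settings are not given in the sources used here. Groups came from the labels. The deposited lengths equal the whole gene span for 100% of genes, and all 1077 protein-coding genes fully covered by other genes were at 0. GENCODE vM39 named 98.7% of the 56980 identifiers. Coordinates are those of the table (GRCm39).

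Counts were tested with edgeR 4.0.16 (TMM, filterByExpr, quasi-likelihood, no covariates) in R 4.3.3. Standard errors and 95% intervals came from its F statistic. Log2 CPM used a prior count of 2, and CPM were divided by TMM-scaled library sizes. DESeq2 1.42.0, the study's tool, was an alternative, run on the filtered genes and, added after seeing the data, on every gene with a count. The receptor density used 1558 genes that no other gene overlaps. The other alternatives were DESeq2 size factors, no filter, a minimum of 10 counts per library, the replicate number as a block, libraries drawn down to 1477431 counts, the receptor density subtracted in proportion to the span, and each library left out. Python 3.11.15 made the tables.

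The members, gene lists and named genes were chosen with earlier results of these data known. Named were all 9 members, up to 5 genes past the thresholds per pathway list or else the 2 with the smallest p, and the 3 genes most like Nfe2l2 and Bach2. One gene of the naive T cell list that this rule names is not reported here. Both tools were tested on simulated data, where at the spread of these libraries edgeR missed even large changes, so that a gene it does not call may still differ, and a sizeable share of the calls of DESeq2 was false. A floor of 3 counts covers counting error only. Protein sequences and the ATAC-seq data were not used here.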

Additional observations from a re-analysis of the deposited data

Results flagged for a closer look

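Within groups of 4 libraries, 22 sets of values were checked for 1 library far from the other 3, and 2 were found, where chance gives about 1 in 20. Nfe2 in HADA replicate 2 had a log2 CPM of 4.24, against 6.26 to 6.53 in the other HADA libraries. Bach2 in control replicate 2 had a log2 CPM of 7.33, against 9.33 to 9.68 in the other controls. Control replicate 2 was also the library with the highest receptor-gene density, 10.8 counts per kb. The part of that density in the Bach2 value was not tested.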

How the results depend on the processing

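The number of genes higher and lower in HADA, 363 and 105, moved to 2457 and 4247 with DESeq2, 2080 and 3465 with DESeq2 on every gene with a count, 158 and 11 with the replicate block, and 28 to 3716 and 1 to 4732 with each library left out, the high end without control replicate 1 and the low end without control replicate 3. There were 54 lower without a filter, and 93, 107 and 92 higher with at least 10 counts in every library, after drawing down and after background subtraction. Members past the thresholds stayed at 0 under all alternatives but DESeq2 on the filtered genes, with 1 (Maff). DESeq2 left the adjusted p of Nfe2 undefined. Members with groups apart and higher, 1 by the TMM values, were 0 after drawing down and after background subtraction, and 0 to 3 with each library left out: 0 without HADA replicate 1, 3 without HADA replicate 2 (Nfe2l2, Nfe2 and Maff), 2 without control replicate 1 (Nfe2l2 and Maff) and 2 without control replicate 4 (Nfe2l2 and Mafk). Nfe2l2, Nfe2l1 and Maff stayed positive in every alternative that gave a value. Nfe2l2 was 0.42 after drawing down, where the median of all genes was -0.47, and 0.90 after background subtraction, where that median was 1.01, so that relative to all genes it was -0.10. Bach2 turned to -0.68 after drawing down, -0.014 after background subtraction and -0.029 with at least 10 counts in every library. Nfe2 turned to -0.28 and Mafk to -0.046 after drawing down. Bach1, at -0.02, turned to 0.014 with DESeq2 on every gene, 0.12 without a filter, 0.53 with the replicate block and 0.088 after background subtraction, and ranged from -0.64 to 1.52 with each library left out, positive without HADA replicate 3, HADA replicate 4 or control replicate 1. Mafg, at -0.06, turned to 0.13 without a filter, 2.48 with the block, and ranged from -0.47 to 1.64 with each library left out, positive without HADA replicate 4, control replicate 1 or control replicate 4. The difference in the log2 ratio of Nfe2l2 to Keap1, 1.80, became 4.25 after background subtraction. That of Nfe2l2 to Bach2, 1.51, became 2.57 after background subtraction and 0.96 without control replicate 2. That of Nfe2l2 to Bach1, 1.69, became 0.80 without HADA replicate 4, 0.95 without control replicate 2 and 2.89 without control replicate 3. That of Nfe2l2 to Keap1 became 1.13 without control replicate 2. All kept their sign. The subtraction sets a gene below the receptor-gene density to 0. This held for Keap1 in most libraries and for Nfe2l2 in control replicate 2. The values 4.25 and 2.57 therefore depend on the prior count and do not measure a larger shift. The causes were not tested. The replicate numbers are not a pairing: deviations of same-numbered libraries correlated across genes at -0.21, 0.25, -0.08 and -0.0032, and the block changed no call of a member. Among the members Keap1 and Maff had the fewest counts and were below the receptor-gene density in most libraries. Control replicate 1 had the smallest total.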
